A study of Bos taurus with 2 samples.

Results

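The insulin-like growth factor (IGF) axis of bovine embryos was examined through 10 named genes, which encode a ligand (IGF2), 5 IGF-binding proteins (IGFBP2, IGFBP3, IGFBP4, IGFBP5 and IGFBP7), 2 receptors (IGF1R and INSR) and 2 receptor substrates (IRS1 and IRS2). The genes were chosen by symbol, and IGFBP7 was included for its large difference between the pools, so that its difference is a description and supports nothing further. Of the 10 genes, 9 had a value in both pools, out of 21209 gene symbols in all, and IRS2 was not analysed here. RNA-Seq values came from a pool of embryos injected with CDKN1C siRNA (injected embryos) and a pool of sham-injected ones (sham embryos), 1 library each. All embryos were bovine and produced by in vitro fertilization. Zygotes of the injected group received siRNA against CDKN1C, an imprinted inhibitor of the cell cycle, and those of the sham group were punctured with the needle and received none. The study's injection experiments collected blastocysts and settled on a single siRNA concentration, and its methods do not state whether the same dose and day held for the RNA-Seq pools. Levels are in FPKM, a gene's fragments per transcript length, here scaled by the authors to the upper quartile of each library, and come from RNA that was amplified first. What amplification did to the levels was not tested.

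IGF1 and IGF2 are secreted growth factors that signal through the tyrosine kinase receptor IGF1R, and insulin signals through the related INSR. The activated receptors phosphorylate IRS proteins, which recruit PI3 kinase and activate AKT and, further down, mTOR. IGF-binding proteins hold IGFs in extracellular fluid and limit or prolong their access to receptors. In mammals IGF2 and its clearance receptor IGF2R are imprinted genes known for opposite effects on fetal growth.

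With 1 library in each group there is no replicate and no error, and each difference compares these libraries only. No test between the pools was therefore made here. The authors did test genes between sham and siRNA-injected embryos, with Cuffdiff, and those calls are not reported here. A difference is given as the ratio of injected to sham FPKM, and for counts of genes as log2 of that ratio after 1 FPKM was added to both values, which understates the difference of low genes. Counts cover genes whose mean over the pools was 1 FPKM or more, 7984 of all symbols and called expressed genes here, and use a difference of at least 2-fold on that scale, which 4.92% of expressed genes passed as higher in injected embryos and 15.7% as lower. CDKN1C itself was 14.6 FPKM in injected embryos and 49.5 FPKM in sham embryos. Among candidate reference genes, GAPDH was 242 against 783 FPKM, RPLP0 was 445 against 1389.8 FPKM and ACTB was 2484 against 1879 FPKM. Of 8 trophectoderm markers 5 were lower in injected embryos, and 3 of the 8 (37.5%) at least 2-fold lower, beside 15.7% of expressed genes. These 3 were the keratin genes KRT8, at 1610.5 against 5760 FPKM, and KRT18, at 5389 against 11245 FPKM, and CDX2, at 1.19 against 3.76 FPKM. The other 3 were higher, IFNT2 at 135 against 31.1 FPKM, ELF5 at 4.64 against 3.37 FPKM and TFAP2C at 40.7 against 34.1 FPKM. Of them IFNT2 alone was past 2-fold, beside 4.92% of expressed genes. All 5 expressed markers of the inner cell mass were lower, 2 of them at least 2-fold, beside 15.7% of expressed genes. POU5F1 was 56.3 against 170.1 FPKM, while KLF4 was nearly equal, at 106 against 113 FPKM. The log2 difference of KLF4, -0.087, lay above the median of all expressed genes, -0.17. In pooled embryos, fewer cells of a type and less RNA per cell cannot be told apart.

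IGFBP7 stood far above every other gene of the axis in injected embryos, and the other members were low in both pools. IGFBP7, a secreted protein that binds IGFs weakly, had 255 FPKM in injected embryos and 6.89 FPKM in sham embryos, a ratio of 37.1. It was at position 361 of all symbols by level in injected embryos and at position 4001 in sham embryos. Its log2 difference after adding 1 FPKM was 5.02, the third highest of the 7984 genes, below IFI6, an interferon-induced gene, at 6.02, and the microRNA gene MIR1248-2, listed at 0 in sham embryos, at 5.05. Divided by GAPDH the ratio of IGFBP7 between pools was 120, divided by RPLP0 it was 116, and divided by ACTB it was 28.1.

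**Figure D1:**
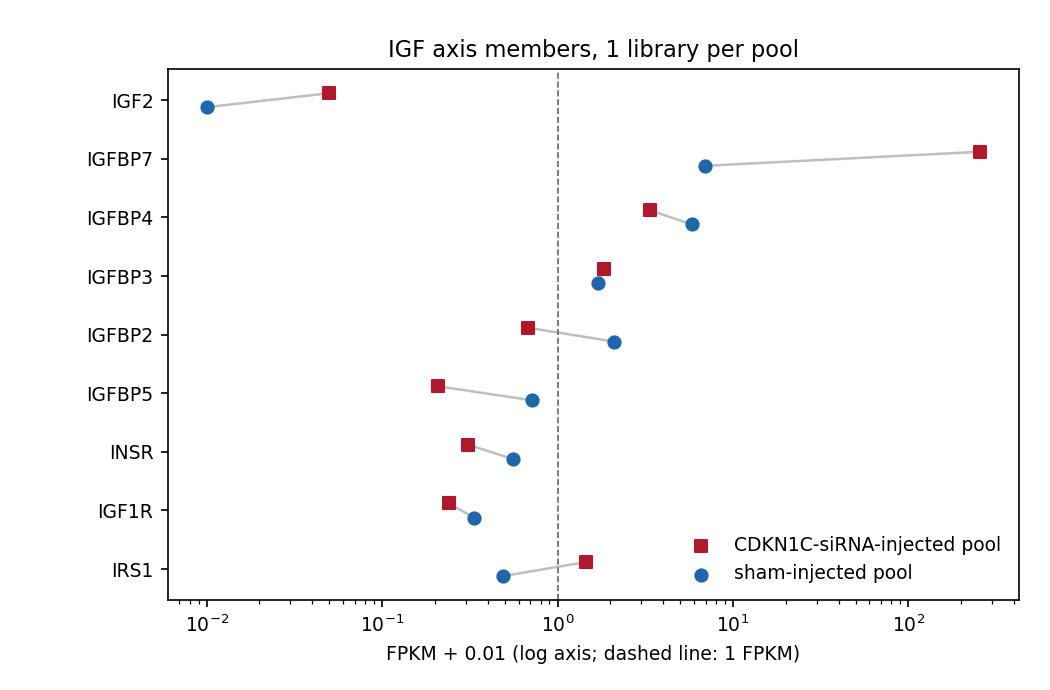
FPKM + 0.01 (horizontal, log axis) of the 9 IGF axis genes with values, ordered by role, in the CDKN1C-siRNA-injected pool (red squares) and the sham-injected pool (blue circles), 1 library each. IGFBP7 lies at 255 FPKM (injected) and 6.89 FPKM (sham), while IGF1R, INSR, IGFBP5 and IGF2 lie below the dashed line at 1 FPKM in both.

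The values of IGFBP7 rest on a span of the genome that is shared with another gene. The authors' files place it on chromosome 6 of the bosTau7 build from 74971000 to 75095658, 125 kb, and give exactly the same span for POLR2B, a subunit of RNA polymerase II. POLR2B was 8.25 FPKM in injected embryos and 7.01 FPKM in sham embryos, a ratio of 1.18. In RefSeq annotation of another bovine assembly, ARS-UCD2.0, the annotated ends of the 2 genes overlap by 81 bases. Whether the counting used strand is not given in the sources used here, so that reads in an overlap could be assigned to either gene, and their part in the result was not tested.

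Within 0.5 Mb of IGFBP7 the files hold 7 other symbols, of which 6 were expressed. NOA1, a mitochondrial GTPase gene whose span lies 0.682 kb before the shared one, was lower in injected embryos, at 1.70 against 6.22 FPKM. REST, a transcriptional repressor of neuronal genes, was 6.56 against 6.95 FPKM, and LOC100851813, given at the same span as REST, was 9.20 against 7.43 FPKM. HOPX, a homeodomain-only protein gene, was 1.09 against 2.14 FPKM, and SPINK2, a protease inhibitor gene, 2.11 against 2.78 FPKM. NOA1 was the only one of these 6 neighbours past 2-fold, a count near the shares of all expressed genes, 4.92% higher and 15.7% lower.

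**Figure D2:**
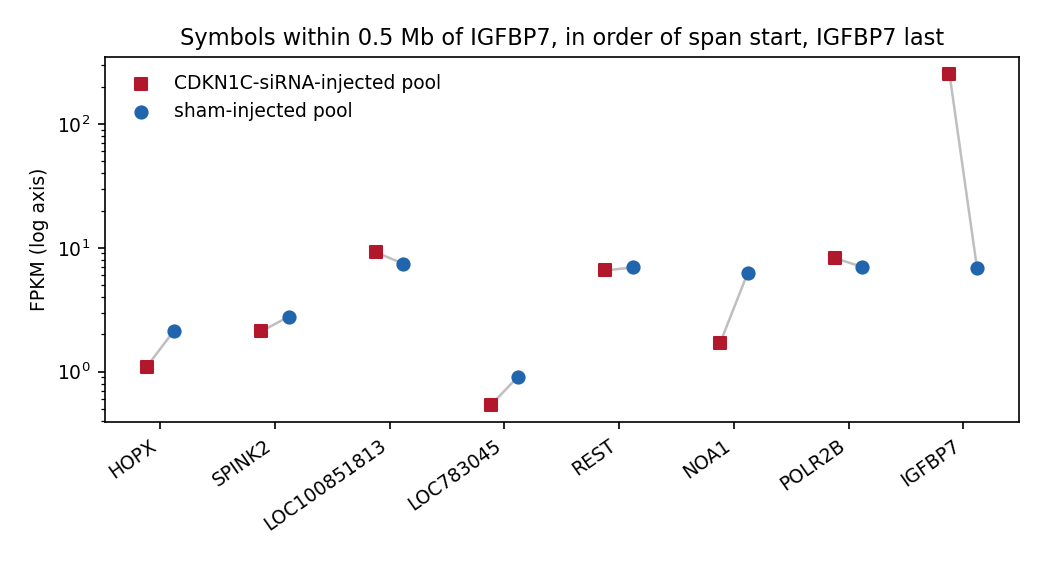
FPKM (vertical, log axis) of the 7 other symbols within 0.5 Mb of IGFBP7, in order of the start of their span, and of IGFBP7 last, in the CDKN1C-siRNA-injected pool (red squares, left) and the sham-injected pool (blue circles, right), 1 library each. POLR2B, which shares the span, lies at 8.25 FPKM (injected) and 7.01 FPKM (sham).

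The genes most like IGFBP7 in their pair of values were found by the distance between log2 values, after adding 1 FPKM, over the 2 libraries. IFI6 was nearest, at a distance of 0.717 and with 337 FPKM in injected embryos and 4.22 FPKM in sham embryos. RARRES2, an adipokine gene, followed at a distance of 1.93, with 74.4 against 3.58 FPKM. LOC100850219, at 54.8 against 7.14 FPKM, and the interferon tau gene IFNT2, at 135 against 31.1 FPKM, came next, at distances of 2.20 and 2.22. A distance of 1 is a 2-fold gap in 1 library, so that only IFI6 lay within 2-fold of IGFBP7.

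IGFBP7 is known as a product of blood vessel endothelium and of fibroblasts, and markers of both were examined beside it. Of 9 endothelial markers with a value, PECAM1 alone was expressed, at 2.91 FPKM in injected embryos and 4.70 FPKM in sham embryos. CDH5, TIE1 and EMCN were listed at 0 in both pools. VWF was 0.0841 against 0.620 FPKM, KDR 0.0328 against 0.0447 FPKM and TEK 0.0116 against 0.0447 FPKM. CLDN5 was 0.229 FPKM in injected embryos and listed at 0 in sham embryos, and ERG was listed at 0 against 0.0339 FPKM. The endothelial markers summed to 3.27 against 5.44 FPKM. Of 10 markers of fibroblasts and mesenchyme, 3 were expressed and all 3 were higher in injected embryos, with VIM, an intermediate filament gene, at 18.5 against 1.46 FPKM, LUM, a matrix proteoglycan gene, at 4.77 against 0.138 FPKM, and the collagen gene COL1A2 at 1.86 against 1.04 FPKM. The summed level of these 10 was 26.2 against 3.08 FPKM, while COL1A1 was listed at 0 in both pools and PDGFRB was listed at 0 in injected embryos and 0.0319 FPKM in sham embryos. Markers of cumulus and granulosa cells summed to 13.2 against 15.0 FPKM. Those of oocytes summed to 9.99 against 24.5 FPKM and those of blood cells to 13.6 against 13.6 FPKM. Of the oocyte markers ZP3 alone was expressed, at 9.39 against 23.67 FPKM, while MOS was 0.348 FPKM in injected embryos and listed at 0 in sham embryos. Of the blood cell markers HBA alone was expressed, at 12.96 against 13.24 FPKM. These oocyte and blood cell sums thus mostly give the level of 1 gene each. The part of any of these cell types in the level of IGFBP7 was not tested.

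IGFBP4, a carrier that mostly inhibits IGF action, lies on chromosome 19 from 41618623 to 41630213 and was 3.37 FPKM in injected embryos and 5.81 FPKM in sham embryos, a ratio of 0.581. IGFBP3, the main carrier of IGFs in blood, lies on chromosome 4 from 78335099 to 78342767 and was 1.82 against 1.70 FPKM. IGFBP3 was thus within 1.07-fold between the pools and was the closest to equal of the 4 members with a mean of 1 FPKM or more. Divided by GAPDH or RPLP0, the ratio of IGFBP3 was 3.47 or 3.35, and divided by ACTB it was 0.811, so that its direction turns with the reference gene. The ratio of IGFBP4 likewise was 1.88 or 1.81 by GAPDH or RPLP0 and 0.439 by ACTB.

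IGFBP2 and IGFBP5 are neighbours on chromosome 2 of bosTau7, separated by 11.9 kb, and both were lower by FPKM in injected embryos. IGFBP2, a carrier with preference for IGF2, from 110346140 to 110374627, was 0.666 FPKM in injected embryos and 2.10 FPKM in sham embryos, a ratio of 0.318. IGFBP5, a carrier that also binds extracellular matrix, from 110386530 to 110405078, was 0.198 against 0.704 FPKM, a ratio of 0.282. Both ratios lie close to that of CDKN1C, at 0.294, and of the reference genes GAPDH, at 0.309, and RPLP0, at 0.320. The third reference gene, ACTB, went the other way, at 1.32. Divided by GAPDH or RPLP0 the ratio of IGFBP2 was 1.03 or 0.992, and divided by ACTB it was 0.240. Whether IGFBP2 was lower thus depends on the reference gene. After adding 1 FPKM the log2 difference of IGFBP2 was -0.89, short of 2-fold, and with 0.1 FPKM added it was -1.52, past it. The mean of IGFBP5 was under 1 FPKM. The 3 genes most like IGFBP2 in their values were RBPMS2, TMC4 and APOL3, at distances of 0.0363 to 0.0439.

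Among the 6 binding protein genes IGFBP2 to IGFBP7, the order of levels differed between the pools. IGFBP6, a carrier with preference for IGF2 that is not among the 10 genes, was 7.36 FPKM in injected embryos and 4.76 FPKM in sham embryos, a ratio of 1.55, and among the alternatives run it was past 2-fold only after a fit on locus length, at 1.07 on the log2 scale. In the injected pool the order was IGFBP7, IGFBP6, IGFBP4, IGFBP3, IGFBP2 and IGFBP5, and in sham embryos it was IGFBP7, IGFBP4, IGFBP6, IGFBP2, IGFBP3 and IGFBP5. IGFBP7 made up 95.0% of their summed FPKM in injected embryos and 31.4% in sham embryos. The sum was 269 against 21.95 FPKM, and without IGFBP7 it was 13.4 against 15.1 FPKM. IGFBP7 was 75.7 times the level of IGFBP4 in injected embryos and 1.19 times in sham embryos. These shares lie within a library and do not depend on how the pools were scaled to each other.

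**Figure D3:**
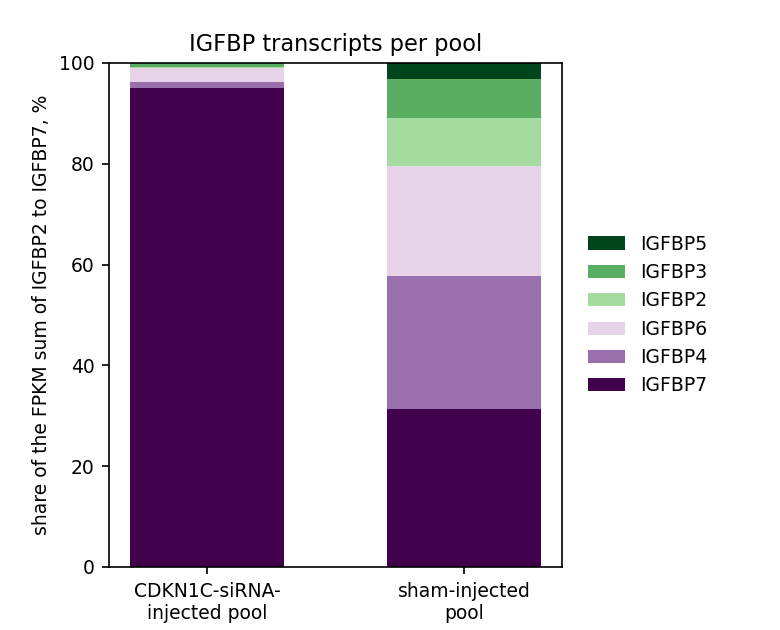
Share of the summed FPKM of IGFBP2 to IGFBP7 (vertical, %) taken by each gene in the CDKN1C-siRNA-injected pool (left) and the sham-injected pool (right), 1 library each. IGFBP7 takes 95.0% in the injected pool and 31.4% in the sham pool, where IGFBP4 takes 26.5% and IGFBP6 21.7%.

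The ligands were at or near 0 in both pools. IGF2, on chromosome 29 from 51064642 to 51083260, was 0.0400 FPKM in injected embryos and listed at 0 in sham embryos, on a span it shares with LOC100851800 and MIR483. IGF1 and INS, the insulin gene 9.36 kb before IGF2, were listed at 0 in both pools. IGF2 lies 662 kb after CDKN1C on the same chromosome, in the region of imprinted genes. H19, the imprinted non-coding RNA gene 88.0 kb after IGF2, was 0.0720 FPKM in injected embryos and listed at 0 in sham embryos.

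Around IGF2, within 0.5 Mb, 14 of 22 other symbols were listed at 0 in both pools, some of them on a shared span. Of 22220 loci in all, 7431 were at 0 in injected embryos and 6630 in sham embryos. The share at 0 in both was not counted. All 5 expressed genes around IGF2 were lower in injected embryos, 4 of them at least 2-fold. CTSD, the lysosomal protease cathepsin D, was 11.8 FPKM in injected embryos and 53.6 FPKM in sham embryos, and MRPL23, a mitochondrial ribosomal protein gene, was 32.3 against 78.0 FPKM. ASCL2, an imprinted trophoblast transcription factor gene, was 3.82 against 8.19 FPKM. TSPAN32, a tetraspanin gene, was 1.03 against 3.55 FPKM, and LOC100852035 was 1.46 against 8.34 FPKM. Over the genome, 15.7% of expressed genes were at least 2-fold lower.

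The study designed PCR assays for 2 genes of this system, IGF2 and its clearance receptor IGF2R. Their primers are shown because they identify the assays of a ligand that was near 0 FPKM here and of the receptor that clears it, which was not. Capitals mark the last 5 bases at the 3′ end, where extension starts.
IGF2 forward: tgctgctatgctgcTTACC
IGF2 reverse: aacactcttccacgATGCC
IGF2R forward: cagtcgcaaagtcgGAACC
IGF2R reverse: ggtcacagtggaagaaGATGG
The primers are 19 to 21 bases long.

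IGF1R and INSR, which signal, were under 1 FPKM, and IGF2R was above it. IGF1R, the main receptor of IGF1 and IGF2, lies on chromosome 21 from 6570910 to 6870874 and was 0.230 FPKM in injected embryos and 0.324 FPKM in sham embryos. INSR, the insulin receptor, on chromosome 7 from 14517609 to 14638059, was 0.301 against 0.545 FPKM. The log2 difference of IGF1R was -0.11, and its direction turns, to 0.060, when the median difference of all genes is set to 0. IGF2R, which carries IGF2 to lysosomes for degradation, was 12.8 against 14.8 FPKM, within 1.16-fold, and higher in injected embryos when both pools had the same total FPKM. Divided by GAPDH or RPLP0 the ratio of IGF2R was 2.78 or 2.68, and divided by ACTB it was 0.650. IGF2R was 55.5 times the level of IGF1R in injected embryos and 45.8 times in sham embryos. INSRR, an orphan relative of these receptors, was listed at 0 in both pools.

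IRS1, which couples the receptors to PI3 kinase, was higher in injected embryos. It lies on chromosome 2 from 120880045 to 120944806 and was 1.44 FPKM in injected embryos and 0.477 FPKM in sham embryos, a ratio of 3.02. Its mean of 0.958 FPKM was under the limit of 1 FPKM, so it was not counted, and after adding 1 FPKM its log2 difference was 0.72, short of 2-fold. IRS4, another member of this family, was listed at 0 in both pools.

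In all, 4 of the 10 genes were expressed. IGFBP7 was at least 2-fold higher in injected embryos, as were 4.92% of all expressed genes, and none of the 4 was 2-fold lower, beside 15.7% of all. IGFBP7 was also past 4-fold, beyond which 0.413% of expressed genes were higher and 1.05% lower. Of the genes with a mean of 50 FPKM or more, 0.248% were that much higher. IGFBP7 entered this band only through its level in the injected pool, so that share is no background for it. IGFBP2, IGFBP3 and IGFBP4 had means of 1 to 5 FPKM, where 4.87% of genes lay past 2-fold on the higher side and 10.6% on the lower. Since IGFBP7 was picked for this difference, nothing is read from these counts. The median log2 difference of the 4 was -0.29, beside -0.17 over all 7984 genes, and without IGFBP7 that of the 3 others was -0.64. The median of the 4 was 0.0049 with both totals made equal, so its direction depends on the scaling.

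**Figure D4:**
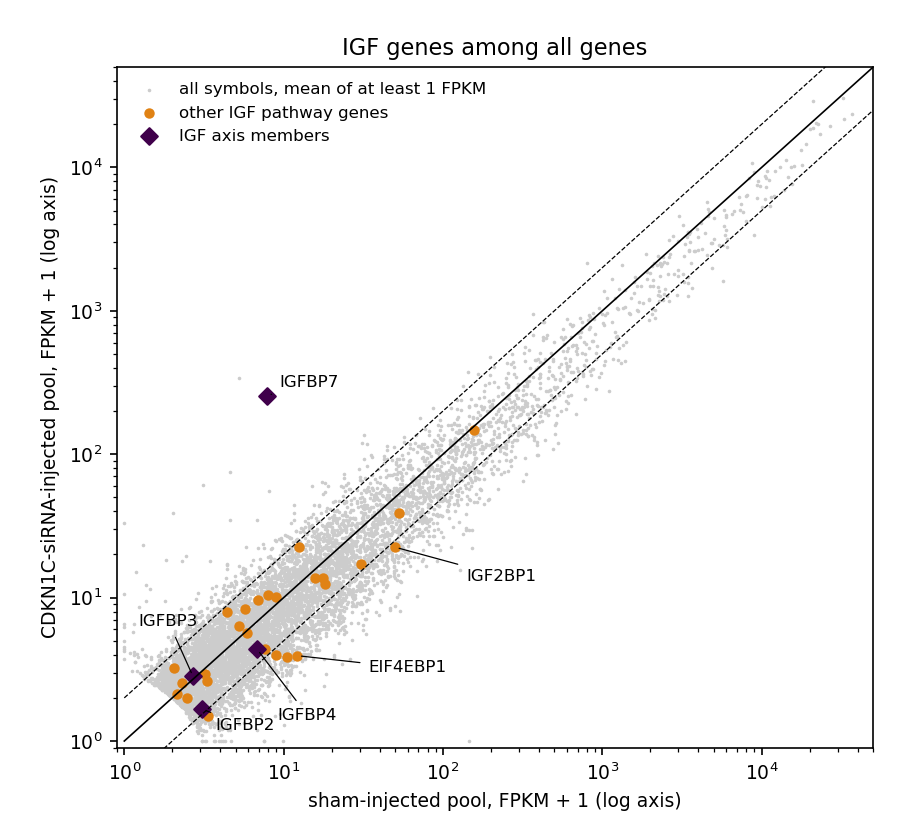
Level in FPKM + 1 of the CDKN1C-siRNA-injected pool (vertical) against the sham-injected pool (horizontal), both axes log, 1 library each, with the 7984 expressed genes in grey, the 4 expressed IGF axis members as purple diamonds and 26 other IGF pathway genes in orange. Values are equal on the solid line and 2-fold apart on the dashed ones, and IGFBP7 is the only member beyond these.

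The rest of the pathway was taken from lists of 67 other genes, of which 64 had a value and 26 a mean of 1 FPKM or more. Of these 26, none was at least 2-fold higher in injected embryos, beside 4.92% of all genes, and 5, or 19.2%, were at least 2-fold lower, beside 15.7%. The median log2 difference was -0.17, equal to that of all genes to this precision. As a whole the pathway stood near the background.

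Regulators of mTOR and of its output made up most of the lower genes. EIF4EBP1, the translation repressor 4E-BP1 that mTOR phosphorylates, was 2.94 FPKM in injected embryos and 11.2 FPKM in sham embryos, with a log2 difference of -1.63. AKT1S1, an inhibitory mTOR partner that AKT phosphorylates, was 2.82 against 9.55 FPKM. MLST8, a subunit of both mTOR complexes, was 2.99 against 8.01 FPKM, and TSC2, tuberin, which restrains mTOR, was 0.485 against 2.34 FPKM on a span shared with LOC504986 and MIR1225. Of 10 genes in this list with a mean of 1 FPKM or more, 9 were lower, 4 of them (40%) at least 2-fold, beside 15.7% of all expressed genes, and the median was -0.59. RHEB, GSK3A and GSK3B turn to higher when the all-gene median is set to 0. With 5 FPKM added EIF4EBP1 alone of the 4 stayed past 2-fold, at -1.03. MLST8 was short of it with equal totals, at -0.87, and after a fit on locus length, at -0.64. The ratios of EIF4EBP1, AKT1S1, MLST8 and TSC2 were 0.262, 0.296, 0.374 and 0.207. Those of the reference genes GAPDH, RPLP0 and ACTB were 0.309, 0.320 and 1.32. The size of these differences, and for MLST8 the direction, thus depends on the reference gene. TSC1, the partner of TSC2, was 16.2 against 29.7 FPKM, and RHEB, the GTPase that both act on, was 147 against 155 FPKM. RPS6KB1, the S6 kinase, had the highest difference of the list, 0.50 on the log2 scale, at 8.69 against 5.87 FPKM.

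**Figure D5:**
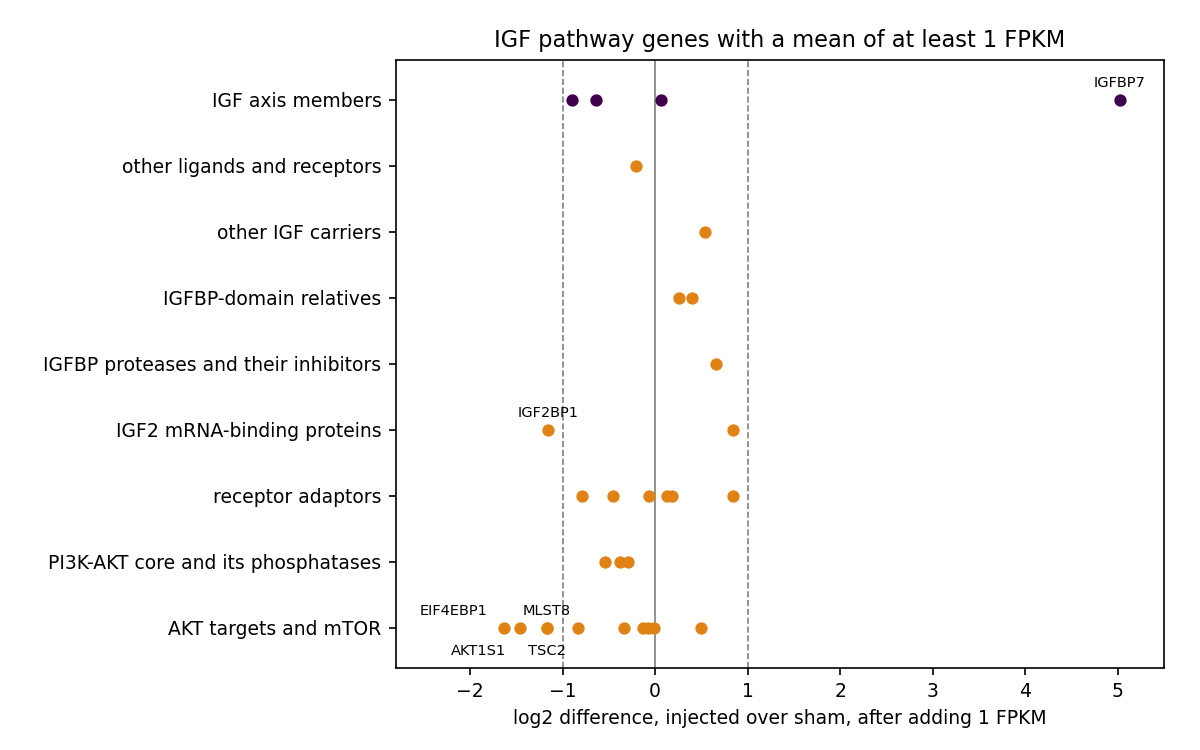
Log2 difference between the CDKN1C-siRNA-injected and the sham-injected pool after adding 1 FPKM (horizontal), for genes with a mean of 1 FPKM or more in each list (rows), 1 library per pool. Dashed lines mark 2-fold differences, and the labelled genes lie beyond them, with IGFBP7 at 5.02 and EIF4EBP1 lowest at -1.63.

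By FPKM, IGF2BP1 was lower and IGF2BP3 higher in injected embryos. IGF2BP1, which stabilises IGF2 and other mRNAs, was 21.5 FPKM in injected embryos and 49.1 FPKM in sham embryos, with a log2 difference of -1.16. It was short of 2-fold with the all-gene median set to 0, at -0.99, and with equal totals, at -0.77. Divided by GAPDH or RPLP0 its ratio was 1.42 or 1.37, and divided by ACTB it was 0.331, so that its direction turns with the reference gene. IGF2BP3, its relative, was 6.91 against 3.41 FPKM, with a log2 difference of 0.84. IGF2BP2 was 0.626 FPKM in injected embryos and listed at 0 in sham embryos. IGF2BP1 was 3.11 times the level of IGF2BP3 in injected embryos and 14.4 times in sham embryos.

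Of the adaptors that bind the receptors, PTPN11, the phosphatase SHP2, had the highest difference, at 21.4 FPKM in injected embryos and 11.5 FPKM in sham embryos, and SH2B1, an adaptor of INSR, the lowest, at 3.39 against 6.59 FPKM. Both were within 2-fold after adding 1 FPKM, but PTPN11 passed it with the all-gene median set to 0 and, at 1.22, with equal totals. The imprinted adaptor gene GRB10, which inhibits both receptors, was 4.65 against 4.90 FPKM. Of 6 adaptors with a mean of 1 FPKM or more, 3 were higher and 3 lower, of which GRB10 turns to higher when the all-gene median is set to 0. PI3 kinase and AKT genes were low, and 3 of 12 with a value reached a mean of 1 FPKM, all lower in injected embryos by less than 2-fold, though PIK3R2 turns to higher after a fit on locus length. PIK3R2, a regulatory subunit of PI3 kinase, was 1.01 against 1.47 FPKM, and the phosphatase gene INPPL1 was 11.4 against 17.1 FPKM.

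Genes that share the IGFBP fold or cut IGFBPs were mostly low. CYR61 and CTGF, matrix-associated targets of YAP signalling, were 9.46 against 6.93 FPKM and 5.32 against 4.27 FPKM in injected and in sham embryos. ADAM9, a metalloprotease gene, was 2.22 against 1.04 FPKM. HTRA1, a secreted serine protease with an IGFBP domain, was 1.84 FPKM in injected embryos and 0.0469 FPKM in sham embryos, a ratio of 39.3. HTRA1 had a mean of 0.945 FPKM, under the limit, and is named after its value was seen. PAPPA, the protease of IGFBP4, was 0.190 FPKM in injected embryos and listed at 0 in sham embryos.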

How the data were processed

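RNA of 1 pool of CDKN1C-siRNA-injected and 1 pool of sham-injected embryos was amplified and sequenced by the authors, who mapped reads to bosTau7 with TopHat and made the deposited FPKM values with Cufflinks 2.0.2, normalized to the upper quartile and corrected for biased sequence. The gene annotation is not given in the sources used here. Rows with the same symbol were summed, and 615 of 22220 loci without a symbol were left out. Read totals were not given. Among 1273 loci with values above 0 and under 0.1 FPKM in both pools, the ratio of injected to sham gathered at 0.906, with 151 loci within 0.05 log2 of it, against 22 and 20 loci in windows 0.3 log2 to either side. A read was therefore worth about as much in each pool, and IGFBP7 had about 40.9 reads in the injected pool per read in the sham pool. Absolute counts were not recovered, so no interval is given.

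No test between pools was run here. The steps were checked on simulated data. Genes were named by a rule. It took all members and every other pathway gene that averaged 1 FPKM or more and differed 2-fold. It also took the highest and lowest difference of each list, neighbours within 0.5 Mb of IGFBP7 and IGF2, the 5 genes most like IGFBP7, of which 1 is not reported here, and 3 most like IGFBP2, reference genes and markers. Other genes named (IGF1, INS, INSRR, H19, IRS4, IGF2BP2, TSC1, RHEB, GRB10, GSK3A, GSK3B, ELF5, TFAP2C, CDX2, KRT8, VWF, KDR, TEK, CLDN5, ERG, DCN, COL3A1, POSTN, TWIST1, THY1, HTRA1, PAPPA, MIR1248-2) were added after their values were seen. The members and lists were chosen with earlier results of these data known. Alternatives were another pseudocount, filter, fold or scaling, the highest locus in place of the sum, a loess fit of the difference on locus length (span 0.3), and IGFBP7 left out. A mean of at least 0.5 FPKM was added after the data were seen. Tools were Python 3.11.15, NumPy 2.4.6, pandas 2.3.3, matplotlib 3.10.9 and statsmodels 0.14.6.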

Additional observations from a re-analysis of the deposited data

How the results depend on the processing

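IGFBP7 kept a log2 difference between 4.45, with 5 FPKM added, and 5.42, with totals made equal, under every alternative that gave a value. Its span is shared with POLR2B, so the length used in the loess fit is not that of the gene. Of the 9 genes with a value, 4 were higher in the injected pool, 2 of 4 after the loess fit on locus length and 1 of 1 with a mean of at least 5 FPKM. Without IGFBP7 no member was 2-fold higher, and with 0.1 FPKM added 1 member, IGFBP2, was 2-fold lower. The median of the members was 0.0049 with the same total FPKM, 0.12 after the loess fit, 5.02 with a mean of at least 5 FPKM, where IGFBP7 alone was left, and 0.064 with a mean of at least 0.5 FPKM, an alternative chosen after seeing the data. Other pathway genes at least 2-fold higher numbered 2 with the median set to 0 or the same total FPKM (IGF2BP3 and PTPN11), and 1 with 0.1 FPKM added (ADAM9), after the loess fit (IGFBP6), without a filter or with a mean of at least 0.5 FPKM (HTRA1). Those at least 2-fold lower numbered 2 with 5 FPKM added, 3 with the same total FPKM and 0 at 4-fold. The median of the pathway was 0.15 with the same total FPKM. The same scaling moved the all-gene median to 0.16, beside -0.17, and the genes at least 2-fold higher to 1012 and lower to 625, beside 393 and 1255. With 5 FPKM added these were 119 and 598, with 0.1 FPKM added 692 were higher, and after the loess fit 595 and 687. Setting the median to 0 or equalising the totals changes the sign of several small differences, IGF1R and GRB10 among them. No paired analysis was possible because each group holds 1 library, and for the same reason no replicate could be left out.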

Other observations

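IGFL1, the gene of an IGF-like secreted protein that is not an IGF, was 11.1 FPKM in injected embryos and 28.1 FPKM in sham embryos. IGFLR1, known in human as a receptor of this family, was 1.26 against 2.32 FPKM. Both are named after their values were seen. Among genes known as imprinted in mammals and expressed in these pools, the ratio of injected to sham FPKM was 0.860 for IGF2R and 0.949 for GRB10. It was 0.467 for ASCL2, 0.438 for PHLDA2 and 0.294 for CDKN1C. Other imprinted genes were not examined here. The reference genes GAPDH, RPLP0 and ACTB had ratios of 0.309, 0.320 and 1.32.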
